A study of Mus musculus with 16 samples.

Results

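Etoposide (ETS) is a topoisomerase II poison used in chemotherapy, and its effect was read here in melanomas that grew in lean hosts. Mouse B16F10 melanoma cells, an established line that arose in C57BL/6 mice, had been grafted under the skin of C57BL/6J mice aged 6 weeks, and RNA of the tumors was sequenced from 4 tumors taken before therapy and from 4 tumors taken after ETS, given as 5 intraperitoneal injections of 20 mg per kg. These 8 libraries of the 16 in the series were chosen by their host and treatment labels, and the comparison covers the 16971 of 45777 listed genes that had no count of 0 in any of the 8. The other 8 libraries come from the same graft in C57BL/6J-ob/ob mice, which lack leptin and become obese, again with 4 tumors before therapy and 4 after ETS, and they serve here only to show where the lean effect differs. No host carried a transgene. All tumors derive from 1 cell line, so the replicates are separate samples of 1 tumor genotype, and the labels do not say whether each came from a separate mouse, so that p-values measure the spread between samples, which may be technical in part. No vehicle-treated tumors are among the libraries analysed here, and the drug and the time that passed during treatment cannot be told apart.

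Topoisomerase II cuts both strands of DNA to let another stretch pass and then reseals the cut, and ETS holds the enzyme on the open break. Cells answer such breaks with the kinases that sense damage and with the transcription factor p53, which raises genes that stop the cell cycle, remove damaged cells and feed back on p53 itself. Genes of replication and mitosis fall when cells leave the cycle. In a tumor that grows in a host with an intact immune system, a further layer is set by interferon gamma from T cells and natural killer (NK) cells: it acts through the interferon regulatory factors, among others, on guanylate-binding proteins, on chemokines and on the genes that present antigen to T cells.

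Total counts per library lay between 59466055 and 61391684 before therapy and between 57178259 and 61655287 after ETS, so depth did not separate the groups. Levels are given below as CPM, which are counts scaled by the size of a library, here with TMM factors, and correlations of log2 CPM ranged from 0.976 to 0.992 within groups and from 0.937 to 0.966 between them. The labelled cell type was checked by 16 melanocyte and melanoma markers, none of which was at 0 in any library, with summed levels of 25773 to 32026 CPM before therapy and 34062 to 40578 CPM after ETS. The 10 genes with the most counts were the mitochondrially encoded COX1, CYTB, ND1, COX2 and ATP6, the pigment cell genes Tyrp1, Gpnmb and Dct, the elongation factor gene Eef1a1 and the glycolytic gene Eno1, and together they took 6.46 to 8.12% of all counts before therapy and 11.2 to 15% after ETS. Tumors 2 and 4 before therapy and tumors 1 and 2 after ETS held counts of Myh4, a myosin of fast skeletal muscle (3774 and 900, and 3446 and 719), while the other 4 libraries held none. The summed level of 15 skeletal muscle markers was 70.5 to 250 CPM or 258 to 478 CPM in those libraries and 8.58 to 15.5 CPM in the others. Ckm, the muscle creatine kinase, had 0.549, 29.0, 0.403 and 6.95 CPM before therapy and 25.5, 26.9, 2.36 and 2.23 CPM after ETS and did not pass the test. Muscle was present in both groups, and counts without these 4 libraries are given below where they bear on a result. The library kit keeps the strand of a read but the strand setting of the counting is not given in the sources used here, so values of genes that overlap another annotated gene are uncertain to that extent. Whole tumors hold host cells beside melanoma cells, so fewer cells of a type and less RNA per cell cannot be told apart.

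ETS went with a change in 7373 of the 16971 tested genes (43.4%) by edgeR's quasi-likelihood test, taken at an adjusted p of less than 0.05, with 3595 rising (21.2%) and 3778 falling (22.3%). With a 2-fold change and an unadjusted p under 0.05 as limits, 2732 genes changed (16.1%), of which 1159 rose (6.83%) and 1573 fell (9.27%). The larger the change, the more the falls outnumbered the rises: among genes past the adjusted limit, 1106 rose and 1448 fell at least 2-fold, 52 rose and 215 fell at least 8-fold, and 1 rose and 19 fell at least 32-fold. All 4 tumors after ETS lay above all 4 before therapy for 3561 genes (21.0%) and below them for 3375 genes (19.9%). These shares, with the 21.2% that rose and the 22.3% that fell, are the background for the counts of every list below. The first principal component of the 8 libraries carried 63.05% of the variance and separated the groups.

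The balance of directions moved with the scale of the values. With TMM scaling the median log2 fold change of all tested genes was -0.02, and 48.8% of the changed genes rose. With library totals alone the median was -0.20 and 30.4% of 8035 changed genes rose. With the deposited TPM values, compared with limma on log2(TPM + 1), the median was -0.26 and 17.4% of 9062 changed genes rose. That setting changes the test as well as the scale, and limma-voom on TMM-scaled counts gave 48.2% of 8383 changed genes as rising. Mitochondrially encoded genes, which took 4.15 to 6.04% of counts before therapy and 9.75 to 14.4% after ETS, are part of the sums by which library totals and TPM values divide. Their part in the shift between the scales was not tested. Because the balance moved with the scale, directions below are relative to the TMM scale, and the cases where the TPM scale turned a list's median are named.

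**Figure D1:**
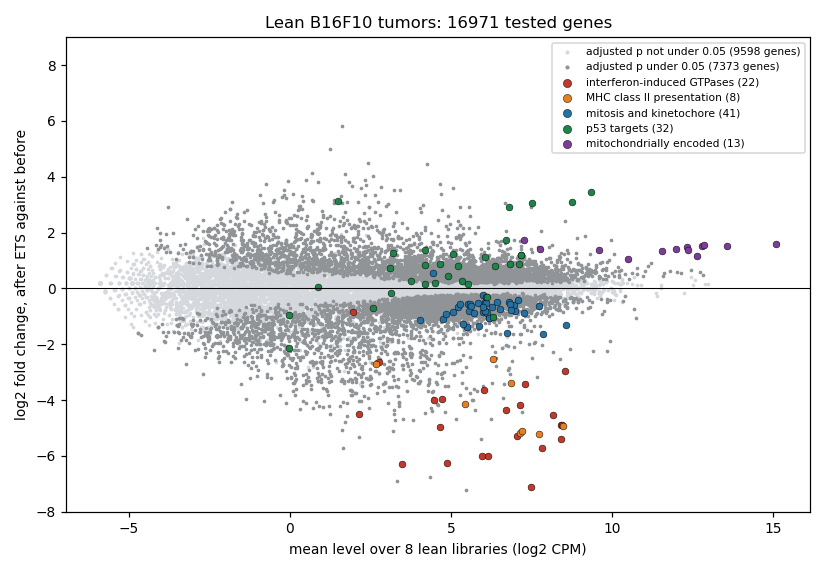
Log2 fold change after ETS against before therapy (vertical axis) by mean level over the 8 lean libraries (log2 CPM, horizontal axis) for 16971 genes, with 7373 genes past an adjusted p of 0.05 in darker grey and 5 gene lists in color. The interferon-induced GTPases lie at the bottom, with a median of -4.71, and the mitochondrially encoded genes at the upper right, with a median of 1.42.

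Leaving out genes with a 0 hid some of the largest falls. This filter removed 185 genes that had counts in all 4 tumors before therapy at a mean of at least 1 CPM and at least 1 zero after ETS, against 25 genes of the reverse kind. Among the 185 were Cd3e, a chain of the T cell receptor complex, with 157, 229, 139 and 258 counts before therapy and 5, 0, 0 and 4 after ETS, and Ciita, the master regulator of MHC class II genes, with 1814, 5563, 4272 and 5292 counts before therapy and 62, 41, 18 and 0 after ETS. The hemoglobin gene Hba-a1, read from red cells in blood, had 5402, 3533, 8390 and 1924 counts before therapy and 0, 3, 0 and 4 after ETS. No library after ETS reached the lowest library before therapy for any of these 3 genes.

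p53 target genes rose as a group. Of 32 listed targets, all tested, 21 rose and 2 fell, where 21.2% of all tested genes rose and 22.3% fell. The median log2 fold change of the targets was 0.82 against -0.02 over all tested genes. In 22 targets, beside 21.0% of all tested genes, all 4 tumors after ETS lay above all 4 before therapy. The summed level of the 32 was 1258, 1265, 1142 and 1269 CPM before therapy and 4158, 4535, 3859 and 3877 CPM after ETS. Without the 4 libraries with a Myh4 count, which leaves 2 tumors a group, 14 rose and 1 fell, and the median was 0.91.

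Cdkn1a (gene ID 12575, chr17:29090979-29100722), whose product p21 blocks cyclin-dependent kinases, had 142, 107, 59 and 134 CPM before therapy and 1224, 1440, 1073 and 1064 CPM after ETS. The lowest tumor after ETS thus lay far above the highest before therapy, and the log2 fold change was 3.44 (standard error 0.27, adjusted p = 8.52e-05). Ccng1, which encodes cyclin G1, rose from 112, 92.9, 68.6 and 93.8 CPM to 830, 856, 738 and 700 CPM (log2 fold change 3.09, standard error 0.16, adjusted p = 2.49e-05). Eda2r, of the tumor necrosis factor receptor family, rose from 0.727, 0.502, 0.403 and 0.664 CPM to 6.42, 4.92, 4.62 and 4.08 CPM (log2 fold change 3.12, standard error 0.26). The groups did not overlap for any of these 3 genes.

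Other targets moved less or the other way. Mdm2, the ubiquitin ligase that degrades p53, rose from 60.4 ± 7.39 to 105 ± 13.5 CPM (mean ± SD, n = 4 each, log2 fold change 0.80, adjusted p = 0.00104 by edgeR). Gdf15, a secreted stress cytokine, did not pass the test, with 1.5, 2.39, 0.434 and 2.85 CPM before therapy and 2.0, 2.13, 1.76 and 1.59 CPM after ETS (log2 fold change 0.06, adjusted p = 0.927). The 2 targets that fell were Mdm4, a partner of Mdm2 that restrains p53, from 106 ± 35.6 to 51.8 ± 14.7 CPM with overlapping groups, and Pmaip1, which encodes the BH3-only protein Noxa, from 1.59 ± 0.559 to 0.365 ± 0.236 CPM.

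The promoter of Cdkn1a is shown because its gene had the largest rise of the list. RefSeq gives 2 starts for it in GRCm38.p6, and the 300 bases around the upstream start (chr17:29090729-29091028, plus strand, 250 bases before the start to 50 from it on) hold a repeat of the hexamer ACATGT in the form bound by p53, in capitals with its spacer, that begins 49 bases before the start.
Cdkn1a: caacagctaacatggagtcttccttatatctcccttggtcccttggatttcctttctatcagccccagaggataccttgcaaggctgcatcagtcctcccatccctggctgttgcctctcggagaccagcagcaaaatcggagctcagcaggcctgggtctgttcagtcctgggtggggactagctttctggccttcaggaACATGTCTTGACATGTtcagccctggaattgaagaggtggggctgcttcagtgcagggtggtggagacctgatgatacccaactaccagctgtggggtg
The letters ACATGTNNNNACATGT, chosen after this sequence was read and searched on both strands, occur in 2 of 15259 promoters (0.0131%) of the 11964 tested genes with a promoter in the RefSeq table, and in 1 of 37 promoters (2.70%) of the p53 targets. This match is a description of letters, and most p53 sites are looser than this pattern.

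Genes of cell division fell almost throughout. Of 41 genes of mitosis and the kinetochore, 39 fell and 1 rose, with a median log2 fold change of -0.77. Of all tested genes 22.3% fell and 21.2% rose. In 40 of the 41, beside 19.9% of all tested genes, all 4 tumors after ETS lay below all 4 before therapy. The single rise was Pttg1, which encodes securin (0.54), and Ube2c, a ubiquitin-conjugating enzyme of the anaphase-promoting complex pathway, did not pass (-0.30). Of 46 genes of DNA replication and nucleotide supply, 39 fell and 1, the G1/S cyclin gene Ccne1, rose by 0.26 on the log2 scale, with a list median of -0.63. Without the libraries with a Myh4 count, 15 of the mitosis genes and 20 of the replication genes fell and none rose, with medians of -0.67 and -0.69, in a fit that called 573 rises and 687 falls in all.

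Mki67 (gene ID 17345, chr7:135689784-135716450), the proliferation marker Ki-67, had 254, 332, 477 and 339 CPM before therapy and 116, 57.4, 149 and 134 CPM after ETS (log2 fold change -1.62, standard error 0.29, adjusted p = 0.0027). Smc4, a condensin subunit that compacts chromosomes, fell from 163, 169, 176 and 134 CPM to 48.2, 27.9, 74.9 and 63.1 CPM (log2 fold change -1.59, standard error 0.26), and tumor 2 after ETS was the lowest for both genes. Uhrf1, which keeps DNA methylation through replication, fell from 313 ± 23.8 to 124 ± 10.7 CPM (log2 fold change -1.34, standard error 0.09, adjusted p = 6.49e-05). The kinetochore motor Cenpe fell by 1.38 on the log2 scale, Gins1 of the replicative helicase by 1.19 and Pole, the leading-strand polymerase, by 1.01.

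The target of ETS was itself lower. Top2a (gene ID 21973, chr11:98992947-99024199), the topoisomerase II of dividing cells, had 492, 531, 620 and 522 CPM before therapy and 227, 174, 259 and 211 CPM after ETS (log2 fold change -1.31, standard error 0.13, adjusted p = 0.000188), with no overlap. Top2b, the form that is also used by resting cells, went from 96.8, 87.8, 93.1 and 80.0 CPM to 73.3, 65.0, 79.5 and 76.4 CPM (log2 fold change -0.28, standard error 0.09, adjusted p = 0.0291), a call that was lost in 5 of the 8 fits that left out a tumor (adjusted p up to 0.0853). Of 8 topoisomerases and enzymes that remove them from DNA, 5 fell (2 or 3 without tumor 2 or 3 before therapy or tumor 1 after ETS) and none rose: beside these, Top3a, Tdp1 and Tdp2 fell by 0.42, 0.49 and 0.41 on the log2 scale, while Top1 had -0.50 with an adjusted p of 0.051. Of 45 genes of double-strand break repair and the Fanconi pathway, 27 fell and 1, Xrcc5 (the Ku80 subunit of end joining), rose by 0.50, with a median of -0.57. Polq, the polymerase of microhomology-mediated joining, fell from 22.8 ± 4.93 to 8.94 ± 2.08 CPM.

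The promoters of 3 mitotic genes are shown because they hold the elements known from genes of late cell cycle, the CHR (TTTGAA) and CCAAT boxes, in capitals. Each runs from 250 bases before the RefSeq start to 50 from it on in GRCm38.p6 (Cdc20 at chr4:118437294-118437593 and Ccnb2 at chr9:70421505-70421804 on the minus strand, Plk1 at chr7:122159185-122159484 on the plus strand).
Cdc20: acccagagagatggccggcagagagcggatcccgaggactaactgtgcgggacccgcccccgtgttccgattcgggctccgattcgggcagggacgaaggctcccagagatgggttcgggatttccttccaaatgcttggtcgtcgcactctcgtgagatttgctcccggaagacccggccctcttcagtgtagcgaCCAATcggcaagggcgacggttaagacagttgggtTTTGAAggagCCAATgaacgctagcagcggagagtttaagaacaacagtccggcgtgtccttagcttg
Ccnb2: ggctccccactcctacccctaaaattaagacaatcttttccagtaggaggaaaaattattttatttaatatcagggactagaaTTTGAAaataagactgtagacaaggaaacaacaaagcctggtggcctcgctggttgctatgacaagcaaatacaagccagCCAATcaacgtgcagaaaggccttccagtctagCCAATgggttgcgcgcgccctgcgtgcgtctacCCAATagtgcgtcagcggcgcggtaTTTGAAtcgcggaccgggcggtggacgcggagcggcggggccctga
Plk1: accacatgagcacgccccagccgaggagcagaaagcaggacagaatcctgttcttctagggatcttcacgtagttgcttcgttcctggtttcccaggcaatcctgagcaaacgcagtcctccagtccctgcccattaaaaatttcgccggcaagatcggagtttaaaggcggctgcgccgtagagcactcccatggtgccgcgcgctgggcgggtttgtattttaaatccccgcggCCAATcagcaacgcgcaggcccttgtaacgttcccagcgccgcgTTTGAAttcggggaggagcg
Searched on both strands, TTTGAA occurred in 26 of 35 promoters (74.3%) of the mitosis genes, in 5 of 43 (11.6%) of the replication genes and in 1961 of 15259 (12.9%) of all tested genes with a promoter. CCAAT occurred in 26 of 35, in 25 of 43 (58.1%) and in 5757 of 15259 (37.7%). A promoter stood in the table for 33 of the 41 mitosis genes and for 37 of the 46 replication genes. Plk1, a kinase that drives entry into mitosis, fell from 113 ± 13.6 to 68.5 ± 5.99 CPM (log2 fold change -0.72), Ccnb2, a mitotic cyclin, from 76.6 ± 2.7 to 55.0 ± 8.14 CPM (-0.48) and Cdc20, an activator of the anaphase-promoting complex, from 68.7 ± 1.76 to 57.7 ± 5.67 CPM (-0.25, adjusted p = 0.0314 by edgeR, lost in 6 of the 8 fits that left out a tumor, at adjusted p up to 0.085).

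Of 35 tested members of the Bcl2 family, caspases and their partners, genes of cell death, 8 rose (22.9%, or 5 genes without tumor 3 before therapy) and 12 fell (34.3%), with a median of -0.19. Of all tested genes 21.2% rose and 22.3% fell, so the share that rose was near the background. Bax, which opens the outer mitochondrial membrane, rose from 97.0, 92.6, 77.5 and 86.1 CPM to 189, 253, 172 and 189 CPM (log2 fold change 1.18, standard error 0.13, adjusted p = 0.00027). Bbc3, which encodes the BH3-only protein Puma, rose from 5.43 ± 1.15 to 13.1 ± 2.58 CPM, and the death receptor gene Tnfrsf10b from 10.2 ± 1.08 to 26.5 ± 2.69 CPM (log2 fold change 1.38). Bcl2l1, whose main product Bcl-xL blocks Bax, also rose, from 55.3 ± 9.84 to 106 ± 9.41 CPM (0.94). Among the falls were the inflammatory caspases: Casp1, which cuts interleukin 1 beta, had 14.2, 12.6, 12 and 13.8 CPM before therapy and 4.21, 1.66, 0.913 and 1.21 CPM after ETS (log2 fold change -2.72, standard error 0.44, adjusted p = 0.0015), and Casp12 fell by 2.27 on the log2 scale. Their levels were highest in tumor 1 after ETS, as were those of many interferon genes below.

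Among 9 ABC transporters linked to drug efflux, 2 rose and 3 fell (5 without tumor 1 before therapy), shares of 22.2% and 33.3% beside 21.2% and 22.3% of all tested genes, so the counts are no result about the list. Abcc2, which exports conjugated drugs, rose from 0.654 ± 0.239 to 2.0 ± 0.293 CPM (log2 fold change 1.61) and Abcg2 rose by 0.55. Abcb1b, a P-glycoprotein gene, fell from 22.2, 29.0, 29.8 and 29.4 CPM to 19.5, 13.7, 17.6 and 11.6 CPM (log2 fold change -0.82, standard error 0.17, adjusted p = 0.00562), Abcc3 by 1.80 and Abcc4 by 0.48. Abcc3 lost the call without tumor 2 before therapy or tumor 3 after ETS (adjusted p = 0.0506 and 0.0537).

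The largest falls of the comparison were those of genes induced by interferon. Of 23 interferon-induced GTPases, many of which attack vacuoles that hold pathogens, 22 were tested and 21 fell, with a median log2 fold change of -4.71 and a range from -7.13 to -0.83. Their summed level was 3540, 7024, 5806 and 6338 CPM before therapy and 463, 283, 154 and 165 CPM after ETS. Tumor 1 was the lowest of the tumors before therapy, and tumors 3 and 4 were the lowest after ETS. The member that did not pass was Mx2 (-0.83), and Gbp2b, not tested, had 2340 counts in sum before therapy and 2 after ETS. Without the libraries with a Myh4 count 21 fell again, with a median of -5.28. The genes are a family with close copies, between which the authors' counting could split reads.

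Gbp4 (gene ID 17472, chr5:105115767-105139586), a guanylate-binding protein, had 167, 457, 383 and 419 CPM before therapy and 5.96, 2.87, 0.698 and 0.639 CPM after ETS (log2 fold change -7.13, standard error 0.77, adjusted p = 0.000251). Iigp1, an immunity-related GTPase, had 270, 510, 501 and 495 CPM before therapy and 18.1, 10.3, 2.87 and 2.51 CPM after ETS (log2 fold change -5.72, standard error 0.68). Gm12250, of the same GTPase family, went from 82.8, 176, 134 and 164 CPM to 5.33, 2.42, 0.412 and 0.397 CPM (log2 fold change -6.02, standard error 0.77). In each, the highest tumor after ETS lay far below the lowest before therapy, and tumors 3 and 4 after ETS were close together at the bottom. Over genes that averaged 1 CPM or more and whose groups did not overlap, the 12 largest falls by log2 fold change were those of Gm12185 (-7.23), Gbp4, Gzmb (-6.91), Apol6 (-6.77), Gbp8 (-6.28), Gm4951 (-6.25), Gm12250, Gbp10 (-5.99), Ms4a4b (-5.73), Iigp1, Tgtp1 (-5.40) and Cxcl9 (-5.40). Apol6 overlaps the annotated myoglobin gene Mb, Gbp10 overlaps Gm31785, Tgtp1 overlaps Gm42074 and Gm4951 overlaps Gm5970.

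Promoters of 5 genes that fell are shown for the motifs bound by factors of the interferon response, in capitals: the ISRE core GAAANNGAAA, bound by interferon regulatory factors, and the GAS core TTCNNNGAA, the gamma-activated site. A match on the other strand appears as its reverse complement. Coordinates in GRCm38.p6 are chr3:142620413-142620712 for Gbp2, chr3:142496684-142496983 for Gbp5, chr11:58183593-58183892 for Gm12250, chr11:53769764-53770063 for the first of 2 starts of Irf1 (all plus strand) and chr5:92348840-92349139 for Cxcl10 (minus strand).
Gbp2: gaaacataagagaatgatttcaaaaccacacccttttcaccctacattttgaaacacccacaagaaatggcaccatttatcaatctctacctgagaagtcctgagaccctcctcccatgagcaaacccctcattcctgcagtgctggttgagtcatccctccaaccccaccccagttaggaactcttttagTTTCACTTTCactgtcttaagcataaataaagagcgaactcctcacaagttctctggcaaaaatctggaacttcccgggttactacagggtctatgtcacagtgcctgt
Gbp5: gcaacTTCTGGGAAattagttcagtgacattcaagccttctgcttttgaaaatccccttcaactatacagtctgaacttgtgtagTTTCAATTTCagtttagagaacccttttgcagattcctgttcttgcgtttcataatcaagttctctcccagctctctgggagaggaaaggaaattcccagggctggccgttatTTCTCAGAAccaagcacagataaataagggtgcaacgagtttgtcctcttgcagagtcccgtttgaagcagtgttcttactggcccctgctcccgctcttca
Gm12250: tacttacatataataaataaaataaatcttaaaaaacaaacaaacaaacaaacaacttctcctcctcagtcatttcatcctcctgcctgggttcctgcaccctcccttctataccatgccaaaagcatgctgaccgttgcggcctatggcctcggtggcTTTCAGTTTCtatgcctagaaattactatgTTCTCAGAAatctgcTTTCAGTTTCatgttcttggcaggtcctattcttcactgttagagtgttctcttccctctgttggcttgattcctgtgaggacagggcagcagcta
Irf1: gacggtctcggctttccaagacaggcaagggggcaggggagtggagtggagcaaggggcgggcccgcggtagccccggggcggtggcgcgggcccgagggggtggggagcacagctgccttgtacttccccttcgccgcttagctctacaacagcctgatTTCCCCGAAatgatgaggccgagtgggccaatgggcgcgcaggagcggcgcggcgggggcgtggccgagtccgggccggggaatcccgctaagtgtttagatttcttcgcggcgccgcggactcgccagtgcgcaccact
Cxcl10: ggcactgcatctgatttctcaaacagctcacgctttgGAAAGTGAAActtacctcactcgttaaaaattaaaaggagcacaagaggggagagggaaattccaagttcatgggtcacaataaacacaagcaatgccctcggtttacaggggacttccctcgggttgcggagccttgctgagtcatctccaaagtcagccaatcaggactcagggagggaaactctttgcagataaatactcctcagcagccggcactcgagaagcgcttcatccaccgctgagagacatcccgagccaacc
The ISRE begins 59 bases before the start in Gbp2, 165 in Gbp5, 91 and 46 in Gm12250 and 213 in Cxcl10, and the GAS begins 245 and 52 bases before the start in Gbp5, 61 in Gm12250 and 90 in Irf1. Searched on both strands, the ISRE core occurred in 10 of 12 promoters (83.3%) of the interferon-induced GTPases, in 18 of 39 (46.2%) of the antiviral effectors and in 471 of 15259 (3.09%) of all tested genes with a promoter. The GAS core occurred in 7 of the 12 (58.3%), in 7 of the 39 (17.9%) and in 1079 of 15259 (7.07%). In 57 promoters both motifs occurred, and in 15 of these they overlapped. Only 11 of the 22 tested GTPase genes had a promoter in the table. Other lists that fell, given below, held the ISRE core less often than these GTPases and effectors. It occurred in 5 of 22 promoters (22.7%) of MHC class I genes and in 1 of 7 (14.3%) of MHC class II genes. The GAS core occurred in 2 of those 22 (9.09%) and in 1 of those 7 (14.3%). Of 10 chemokine promoters, 1 held the ISRE core and none held the GAS core.

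Gbp2 fell from 430, 934, 573 and 699 CPM to 32.5, 29.6, 13.1 and 14.0 CPM (log2 fold change -4.89, standard error 0.40, adjusted p = 9.69e-05) and Gbp5 from 28.1, 68.2, 44.9 and 53.2 CPM to 2.67, 1.72, 0.86 and 0.916 CPM (-4.98, standard error 0.43). Irf1, the factor that carries much of the interferon gamma response, fell from 195, 383, 294 and 316 CPM to 35.2, 30.2, 19.7 and 22.9 CPM (-3.46, standard error 0.25, adjusted p = 6.49e-05). Cxcl10, a chemokine that draws T cells, fell from 54.6, 169, 103 and 140 CPM to 13.5, 7.05, 11.4 and 9.81 CPM (-3.48, standard error 0.35). Cxcl10 overlaps the annotated gene Art3. In these 4 genes too, no tumor after ETS reached a tumor before therapy.

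Antiviral effectors fell less, and not all of them did. Of 40 tested, 30 fell and 1 rose, with a median log2 fold change of -1.58. Apol9a, of the apolipoprotein L family, fell from 94.8 ± 22.9 to 5.89 ± 4.25 CPM (log2 fold change -4.01) and its close copy Apol9b by 3.69. Ifit1, which binds foreign RNA ends, overlaps the annotated gene Ifit1bl1 and had 26, 32.6, 21.7 and 18.2 CPM before therapy and 20, 13.1, 32.8 and 28.4 CPM after ETS (log2 fold change -0.06, standard error 0.28, adjusted p = 0.871), and the groups overlapped. Isg15, a ubiquitin-like protein, had 22.8, 38.0, 17.5 and 19.4 CPM before therapy and 17.2, 16.4, 19.7 and 21.5 CPM after ETS (-0.39, standard error 0.23, adjusted p = 0.206). Ifit3 fell from 65.8, 103, 79.4 and 71.8 CPM to 50.2, 39.3, 52.0 and 55.4 CPM (-0.70, standard error 0.16, adjusted p = 0.00665), though not with all 16 libraries in the fit (adjusted p = 0.074). In Ifit1 the tumors with the highest levels after ETS were 3 and 4, which were the lowest for the GTPases. The gene that rose was Ifi27, from 121 ± 11.7 to 198 ± 24.9 CPM.

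The factors and sensors of the pathway fell as well. Of 24 tested interferon receptors, Stat and Irf factors, 16 fell and 1, the receptor chain gene Il10rb, rose (0.34, but -0.03 on the TPM scale), with a median of -0.69. Irf8, a factor of myeloid cells, fell from 81.7 ± 8.02 to 6.83 ± 4.56 CPM (log2 fold change -3.58). Socs1, which interferon induces and which shuts its receptors off, fell from 14.1 ± 3.99 to 1.35 ± 0.116 CPM (-3.38). Of 14 cytosolic sensors of nucleic acids, 11 fell and 1, the adaptor gene Mavs, rose by 0.48, with a median of -0.67. Zbp1, a sensor of Z-form nucleic acid, fell from 83.3, 141, 89.4 and 94.4 CPM to 7.57, 7.78, 2.04 and 2.56 CPM (-4.36, standard error 0.46, adjusted p = 0.000231), and Aim2 and Ifi204, which sense DNA in cells, fell by 2.86 and 3.35.

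Antigen presentation fell in both classes. Of 24 genes of MHC class I presentation, 21 fell and none rose, with a median of -2.55, and the 3 that did not pass were the general chaperone genes Calr, Pdia3 and Canx (-0.08, 0.02 and -0.35). Psmb9, a subunit of the immunoproteasome, had 117, 171, 141 and 153 CPM before therapy and 11.5, 6.90, 1.88 and 2.64 CPM after ETS (log2 fold change -4.67, standard error 0.53, adjusted p = 0.000317). Nlrc5, the transactivator of class I genes, fell from 86.2, 215, 231 and 202 CPM to 23, 12, 6.98 and 5.79 CPM (-3.94, standard error 0.50). Psmb8, a further immunoproteasome subunit, fell by 4.41. B2m, the light chain of every class I molecule, fell from 1550 ± 216 to 418 ± 174 CPM (-1.89) and the heavy chain gene H2-K1 from 1124 ± 249 to 238 ± 113 CPM (-2.24). Reads of H2 genes can be shared between close copies.

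All 8 tested genes of MHC class II presentation, of 11 listed, fell, with a median of -4.53. H2-Aa had 337, 602, 297 and 436 CPM before therapy and 22.8, 16.3, 3.46 and 2.21 CPM after ETS (log2 fold change -5.22, standard error 0.75, adjusted p = 0.000889), and H2-Ab1, its beta chain partner, and H2-Eb1 fell as well (-5.18 and -5.11). Without the exclusion of zeros all 11 fell, Ciita among them with 16941 counts in sum before therapy and 121 after ETS. The fall was again deepest in tumors 3 and 4. Among 34 subunits of the constitutive proteasome, 9 fell (26.5% beside 22.3% of all tested genes) and none rose, with a median of -0.06. The share that fell was thus near the background. Psma5 had the largest change (-0.61).

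Markers of immune cells fell with the interferon genes. The summed level of 20 T and NK cell markers was 80.1, 134, 94.7 and 137 CPM before therapy and 7.02, 6.96, 2.33 and 2.83 CPM after ETS, and 3 to 12 of the 20 were at 0 in each tumor after ETS against none before. Only 6 of them could be tested, and all 6 fell, with a median of -3.98. Without the exclusion of zeros 19 of 20 fell. Cd8a, the co-receptor of cytotoxic T cells, summed to 2142 counts before therapy and 31 after ETS, and Ifng, the gene for interferon gamma, had 83, 176, 65 and 147 counts before therapy and 4, 0, 0 and 0 after ETS.

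Gzmb, the granzyme with which these cells kill, had 12, 19.6, 22.3 and 25.6 CPM before therapy and 0.177, 0.254, 0.143 and 0.0864 CPM after ETS (log2 fold change -6.91, standard error 0.36, adjusted p = 2.49e-05). Nkg7, of cytotoxic granules, fell from 8.68 ± 2.66 to 0.216 ± 0.141 CPM (-5.32) and Il2rb, a chain of the interleukin 2 receptor, from 17.8 ± 6.03 to 0.877 ± 0.522 CPM (-4.34). Among 9 tested checkpoint genes 8 fell, all but Lgals9 (0.18). Cd274, which encodes PD-L1, fell from 39.3, 96.5, 85.8 and 86.9 CPM to 12.4, 10.2, 10.7 and 10.2 CPM (-2.83, standard error 0.26, adjusted p = 0.000134), and Lag3, an inhibitory receptor of T cells, and Cd86, a costimulatory ligand of myeloid cells, fell by 3.75 and 2.97.

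Macrophage markers were lower too. Their summed level (20 genes) was 1567, 1424, 535 and 1120 CPM before therapy and 423, 502, 139 and 62.7 CPM after ETS, and 14 of 19 tested fell with a median of -2.15. Csf1r, the receptor on which macrophages depend, had 97.9, 87.5, 30.7 and 62.1 CPM before therapy and 20.5, 26.8, 4.89 and 1.38 CPM after ETS (log2 fold change -2.38, standard error 0.77, adjusted p = 0.0334), a call lost in 5 of the 8 fits that left out a tumor (adjusted p up to 0.0727). Itgam, an integrin of myeloid cells, fell from 75.0, 56.4, 29.2 and 58.2 CPM to 6.10, 9.16, 3.10 and 1.11 CPM (-3.49, standard error 0.57). Fcgr1 fell by 3.39, Aif1 by 3.36 and the lysozyme gene Lyz2 by 2.93. Tumors 3 and 4 after ETS, lowest for the interferon GTPases, were also lowest here.

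Smaller lists of immune cells followed. The dendritic cell genes Zbtb46, Itgax and Ccr7, the 3 of 8 that could be tested, fell by 0.83, 2.54 and 2.35. Of 2 tested B cell genes, Ighm fell by 3.54 and Cd79a rose by 1.62, and the neutrophil list kept 1 of 9 genes and made no call. Of 16 tested chemokines 9 fell and none rose, with a median of -1.64. Cxcl9, induced by interferon gamma, had 68.4, 167, 120 and 122 CPM before therapy and 5.63, 3.97, 0.895 and 0.83 CPM after ETS (log2 fold change -5.40, standard error 0.64), and Ccl4, which draws T cells and macrophages, fell by 4.10, whereas Ccl5 had 10.6, 16.2, 4.98 and 12.4 CPM before therapy and 12.7, 14.4, 21.1 and 21.3 CPM after ETS (0.65, standard error 0.33, adjusted p = 0.135). Of 16 complement genes 10 fell and 1, Cd59a, which shields cells from lysis, rose by 1.78, with a median of -1.97. The number that fell was 5 without tumor 2 before therapy and 6 without tumor 1 or tumor 3 after ETS. C3, the central complement protein, had 81.3, 81.7, 7.63 and 24.7 CPM before therapy and 4.60, 15.5, 1.47 and 2.89 CPM after ETS (-3.01, adjusted p = 0.0229), so that tumor 3 before therapy lay below tumor 2 after ETS. The part that these cell types have in the fall of the interferon genes was not tested.

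**Figure D2:**
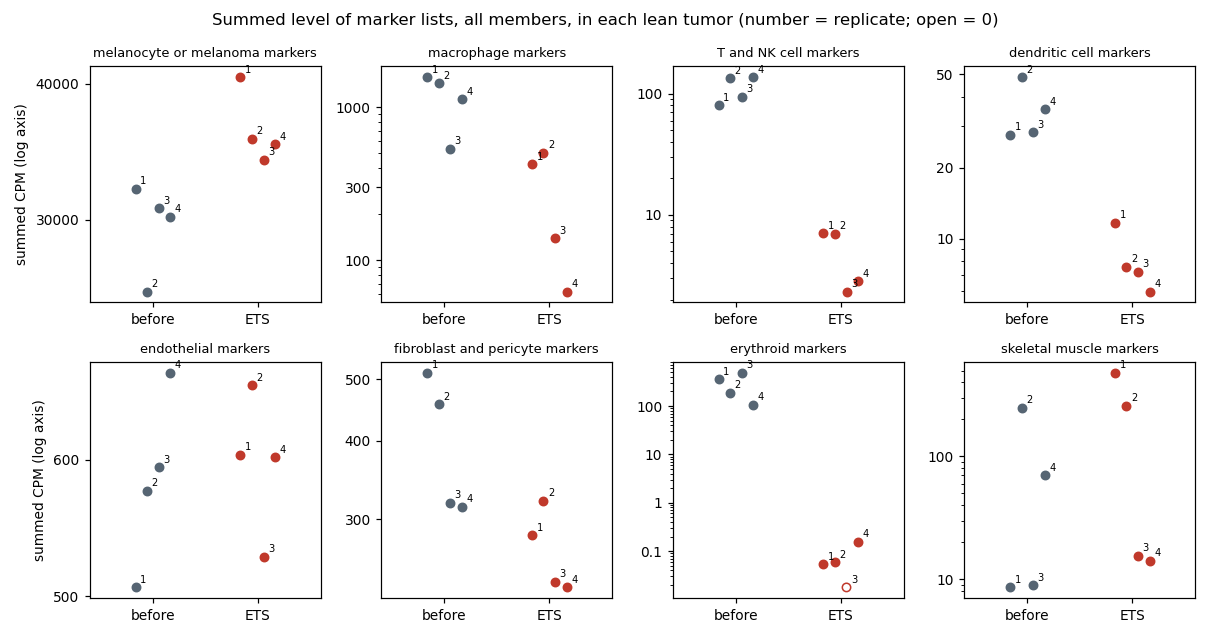
Summed level (CPM, log axis) of 8 marker lists in each lean tumor before therapy and after ETS, with the replicate number beside each point and an open point at 0. T and NK cell markers fell from 80.1 to 137 CPM down to 2.33 to 7.02 CPM, erythroid markers from 107 to 483 CPM down to at most 0.156 CPM, while the endothelial sums overlapped (506 to 674 and 527 to 663 CPM).

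Vessel and stromal markers had median log2 fold changes of -0.26 (endothelial) and -1.07 (fibroblast and pericyte). Of those tested, 29.4% and 14.3% fell and none rose, beside 22.3% and 21.2% of all tested genes. Changes of the fibroblast and pericyte markers ranged from -3.07 to 0.74, so a marker without a call was not shown to be unchanged. The 17 endothelial markers summed to 506 to 674 CPM before therapy and 527 to 663 CPM after ETS, and 5 fell (2 or 3 without tumor 2 or 4 before therapy or tumor 2, 3 or 4 after ETS): Kdr, the main receptor for vascular endothelial growth factor, from 24.3 ± 5.69 to 14.4 ± 1.51 CPM (log2 fold change -0.75), and Emcn, Erg, Ptprb and Pecam1 by 0.61, 0.85, 0.72 and 0.37. Pecam1 had 43.6, 48.3, 38.4 and 47.2 CPM before therapy and 40.3, 36.3, 26.1 and 34.5 CPM after ETS with an adjusted p of 0.0497, and lost its call in 6 of the 8 fits that left out a tumor (up to 0.123). Of 14 tested fibroblast and pericyte markers, Pdgfrb (-0.78) and Postn (-1.54, lost in 4 of 8 fits without a tumor, at adjusted p up to 0.0916) fell (5 fell without tumor 3 before therapy or tumor 2 after ETS), and their summed level was 314 to 512 CPM before therapy and 234 to 321 CPM after ETS. The erythroid markers, none of which could be tested, summed to 107 to 483 CPM before therapy and to between 0 and 0.156 CPM after ETS. The erythroid sums were thus near 0 after ETS in all 4 tumors, while the endothelial sums of the groups overlapped. Of 3 tested adipocyte genes 2 fell, Pparg by 2.2 and Lipe by 0.67, Adipoq (adiponectin) had 28, 28, 2 and 13 counts before therapy and 27, 25, 0 and 6 after ETS, and none of 5 tested muscle genes and no keratinocyte gene (1 tested) was called.

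Of 20 tested collagens 9 fell and 3 rose, with a median of -0.74, and 4 fell without tumor 1 after ETS. Col1a1, the main fibrillar collagen, had 461, 365, 189 and 222 CPM before therapy and 69.8, 175, 23.6 and 56.6 CPM after ETS (log2 fold change -1.93, standard error 0.55, adjusted p = 0.0204). Its call was lost without tumor 1 or without tumor 4 after ETS (adjusted p = 0.0552 and 0.0508). Col3a1 had 1112, 749, 162 and 253 CPM before therapy and 107, 197, 35.4 and 56.2 CPM after ETS (-2.53, standard error 0.71), and Col14a1 fell by 2.39. In all 3 collagens tumor 1 before therapy was the highest. Col11a1, a collagen of cartilage, rose by 2.0, Col18a1 by 0.57 and Col16a1 by 0.29 (-0.08 on the TPM scale). Of 17 actin and serum response factor genes 7 fell and none rose, with a median of -0.35. Actb fell from 2129, 2337, 2353 and 2476 CPM to 1042, 753, 1348 and 1311 CPM (-1.06, standard error 0.18, adjusted p = 0.00201), and the actin-binding proteins Tagln2 and Flna by 1.5 and 0.92. Of 23 matrix proteins, proteases and crosslinkers, 4 rose (Sparc by 0.73, Spp1 by 0.83, Timp2 by 0.70 and Loxl2 by 0.78) and 5 fell (Fbn1 by 2.45, Mmp19 by 2.02, Thbs1 by 1.08, Timp3 by 0.73 and Fn1 by 0.56). These shares of 17.4% and 21.7% were those of all tested genes or lower (21.2% and 22.3%), and 3 fell without tumor 4 before therapy or tumor 3 after ETS. The call of Loxl2 was lost in most fits that left out a tumor (adjusted p up to 0.103). In genes of the invasive melanoma state, Tgfbi (-3.75), Axl (-2.86), Tead1 (-0.99), Zeb1 (-0.89) and Zeb2 (-0.46) fell and the intermediate filament gene Vim rose (0.91), among 16 tested. The other 10 were not called, and the median was -0.44. Shares of 31.2% falling and 6.25% rising stand beside 22.3% and 21.2% of all tested genes. The summed level of the 18 listed genes was nonetheless higher after ETS, at 3263 to 3568 CPM against 2031 to 2498 CPM before therapy.

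Mitochondrial genes rose. All 13 mitochondrially encoded messenger RNAs rose, with a median log2 fold change of 1.42 and a range from 1.04 to 1.72. COX1 (mitochondrial genome, 5328 to 6872), a core subunit of complex IV, had 23457, 14458, 13693 and 18006 CPM before therapy and 54975, 70362, 40388 and 44658 CPM after ETS (log2 fold change 1.6, standard error 0.28, adjusted p = 0.00229), and ND6 and ND1 of complex I rose by 1.72 and 1.54. Every tumor after ETS lay above every tumor before therapy for all 13. In the annotation ND6 overlaps ND5, COX1 overlaps TrnS1 and ND1 overlaps TrnI. Without the libraries with a Myh4 count, the median of the 13 was 1.13 and none was called. The summed level of the 13 was 59913, 40062, 38248 and 46093 CPM before therapy and 140021, 162639, 99863 and 115731 CPM after ETS. After ETS the tumors with muscle RNA, 1 and 2, were the higher, and tumors 3 and 4, with a muscle marker sum of at most 15.5 CPM, were above all tumors before therapy. The part of muscle RNA in the rise was not tested.

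Nuclear genes of oxidative phosphorylation rose with them. Of 73, 71 rose and none fell, with a median of 0.68, or 0.30 on the TPM scale, on which 47 rose and none fell. The changes of the 73 ranged from 0.28 to 1.15. Uqcrh, a subunit of complex III, had 99.7, 92.2, 97.1 and 93.3 CPM before therapy and 221, 221, 197 and 212 CPM after ETS (log2 fold change 1.15, standard error 0.07, adjusted p = 5.48e-05), and Uqcr11 of the same complex rose by 1.14. Ndufa13 of complex I rose from 98.6 ± 11.6 to 211 ± 29.1 CPM (1.10). Without the libraries with a Myh4 count 24 of the 73 rose, with a median of 0.55. Ribosomal protein genes of the mitochondrion (28 of 77 rose and 2, Mrps22 and Mrpl18, fell by 0.31 and 0.28) and of the cytosol (30 of 76 rose, none fell) had medians of 0.23 and 0.27, which turned to -0.15 and -0.10 on the TPM scale. On that scale 4 rose and 30 fell for the mitochondrial list, and 1 rose and 9 fell for the cytosolic list. Without tumor 3 or tumor 4 before therapy, 18 of the mitochondrial and 16 of the cytosolic list rose.

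Fatty acid oxidation is the process on which the study centred. Of 15 genes of the pathway, 9 rose and none fell, with a median of 0.51. The list was taken from the study's primers for this pathway, and how those genes were chosen is not given in the sources used here, so it is not taken as independent evidence of its direction. On the TPM scale the median was 0.12, with as many genes falling as rising. Acads, the short-chain acyl-CoA dehydrogenase, had 66.7, 49.5, 48.2 and 54.3 CPM before therapy and 113, 147, 103 and 105 CPM after ETS (log2 fold change 1.10, standard error 0.14, adjusted p = 0.00058). Acadvl, the very-long-chain enzyme, rose from 51.1 ± 10.9 to 105 ± 16.6 CPM (1.04), and Acaa2, the thiolase of the last step, by 0.96. Cpt1a, which commits fatty acids to the mitochondrion, had 42.8, 42.5, 37.7 and 49.6 CPM before therapy and 63.8, 47.9, 51.1 and 51.4 CPM after ETS, with overlapping groups (0.31, standard error 0.11, adjusted p = 0.0511).

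Of 20 other mitochondrial genes of the pathway, 11 rose and 4 fell, with a median of 0.37. On the TPM scale the median was 0.02, with 7 rising and 6 falling. Without the libraries with a Myh4 count 3 of the 20 rose and none fell, with a median of 0.28. Cpt1c, the form of the carnitine enzyme best known from neurons, rose from 23.1, 23.7, 19.1 and 22 CPM to 85.4, 106, 73.5 and 79.3 CPM (log2 fold change 1.97, standard error 0.13, adjusted p = 6.25e-05). Eci2, an enoyl-CoA isomerase, rose from 66.0, 56.7, 63.2 and 64.8 CPM to 159, 155, 141 and 135 CPM (log2 fold change 1.23, standard error 0.08, adjusted p = 6.49e-05). Those that fell were the acyl-CoA synthetase genes Acsl3, Acsl4 and Acsl5 (-0.39, -0.67 and -0.35) and Cpt1b, the muscle form of the carnitine enzyme. Cpt1b had 0.178, 4.81, 5.83 and 4.35 CPM before therapy and 0.248, 0.117, 0.161 and 0.743 CPM after ETS (-3.56, standard error 0.94, adjusted p = 0.0144), so that tumor 1 before therapy lay among the tumors after ETS. Peroxisomal genes (7 of 15 tested rose, none fell) had a median of 0.28, or -0.10 on the TPM scale, and Ech1 rose by 0.89. Without the libraries with a Myh4 count none of the study's 15 genes was called, with a median of 0.36. Among 15 tested genes of the PPAR receptors, their partners and targets, 6 rose (3 without tumor 2 before therapy or tumor 2 or 3 after ETS) and 3 fell (Cpt1b, Ucp2 by 1.25 and Pparg), with Fabp3, a fatty acid carrier, highest at 2.04. These shares of 40% and 20% stand beside 21.2% and 22.3% of all tested genes, so the share that fell was near the background. The median of this list was -0.00, or -0.37 on the TPM scale, on which 1 rose and 6 fell. Ppara, the receptor that drives fatty acid oxidation, had 0.549, 0.35, 0.481 and 0.648 CPM before therapy and 0.849, 0.821, 1.34 and 0.363 CPM after ETS, with overlapping groups (0.73, standard error 0.37, adjusted p = 0.142).

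Other metabolic lists moved in both directions. Of 22 glycolysis genes 14 rose (9 without tumor 2, 3 or 4 before therapy or tumor 2 after ETS) and 2, the regulator genes Pfkfb3 and Pfkfb4 (-0.42 and -0.75), fell, with a median of 0.51, and of 20 hypoxia factors and targets 10 rose and none fell, with a median of 0.42. On the TPM scale 6 glycolysis genes rose and 4 fell (median 0.16), and 5 hypoxia genes rose and 2 fell (0.05). Without the libraries with a Myh4 count 1 glycolysis gene and 2 hypoxia genes rose and none fell, with medians of 0.40 and 0.53. Pfkm, the muscle form of phosphofructokinase, rose from 44.6 ± 6.58 to 89.8 ± 7.80 CPM (log2 fold change 1.01), Eno2, an enolase, from 15.7 ± 3.33 to 32.7 ± 5.88 CPM (1.06), and Car9, a carbonic anhydrase induced in hypoxia, from 268, 146, 192 and 235 CPM to 375, 436, 416 and 614 CPM (1.13, standard error 0.21, adjusted p = 0.00315). Hif1a itself had 298, 242, 289 and 283 CPM before therapy and 374, 341, 327 and 311 CPM after ETS (0.28, adjusted p = 0.0384), but -0.09 on the TPM scale, and lost its call in 6 of the 8 fits that left out a tumor (adjusted p up to 0.102). Cholesterol synthesis fell in 12 of 24 genes and rose in none, with a median of -0.31. Of 16 tested genes of fatty acid synthesis and desaturation 7 fell, the desaturase gene Scd1 by 0.90 and the elongase gene Elovl5 by 0.80 among them, and 4 rose (Thrsp by 2.56, Acacb by 0.58, Elovl7 by 0.41 and Me1 by 0.37). These shares of 43.8% and 25% stand beside 22.3% and 21.2% of all tested genes, so the share that rose was near the background. Of 17 tested genes of serine, one-carbon and sulfur amino acid metabolism 9 fell, Cth by 1.19 and Mthfd2 by 0.93 among them, and 2 rose (Cbs by 1.08 and Sardh by 0.73), with a median of -0.46.

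Stress and antioxidant lists moved in both directions. Of 23 genes of the integrated stress and unfolded protein responses 14 fell (9 without tumor 2 before therapy) and 1, the chaperone gene Dnajb9, rose by 0.46. Slc7a11, the cystine importer, had 20.1, 19.6, 16.7 and 18.9 CPM before therapy and 2.97, 2.15, 7.79 and 3.87 CPM after ETS (log2 fold change -2.16, standard error 0.35, adjusted p = 0.00161), and the stress factor gene Atf3 and the glutathione-degrading enzyme gene Chac1 fell by 1.86 and 1.77. Of 20 immediate early genes 7 fell and 1, Ier3, rose by 0.57 (6 rose without tumor 1 before therapy), with Egr1 falling from 11.9 ± 3.34 to 2.65 ± 0.639 CPM (-2.17), Egr2 by 2.17 and Klf2 by 1.78. Of 15 tested genes linked to senescence and its secretions 6 fell, the adhesion molecule gene Icam1 (-2.61), Hmgb2 (-1.34) and Plau (-1.21) among them, and 2 rose (Tgfb2 by 0.90 and Igfbp4 by 0.43), with a median of -0.80. Glutathione S-transferases, which conjugate drugs, rose in 14 of 24 genes and fell in 3 (Gsta4, Gstp3 and Mgst1, by 0.59, 1.04 and 0.73), with a median of 0.71. Gstm6 rose from 2.46, 1.34, 1.46 and 1.6 CPM to 8.21, 9.81, 7.65 and 8.85 CPM (2.33, standard error 0.22, adjusted p = 0.000148), within a family of close copies, and Gstm7 and Gstm5 by 1.56 and 1.23. Of 17 Nfe2l2 antioxidant genes 7 fell (4 without tumor 4 before therapy or without tumor 1 or 4 after ETS), Gsr by 0.97 and Gclc by 0.88 among them, and 2 rose, Gpx4, which repairs lipid peroxides, from 214 ± 47 to 443 ± 102 CPM (1.05) and the ferritin chain gene Fth1 by 0.64. Lysosomal genes rose in 16 of 32 and fell in 1, Ctsh (-1.0), with a median of 0.37 that became -0.01 on the TPM scale, and the cathepsin gene Ctsf rose from 1.40 ± 0.399 to 11.9 ± 2.05 CPM (3.09) and the proton pump subunit gene Atp6v0d2 by 1.93.

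Of 16 melanocyte and melanoma markers 8 rose and none fell, with a median of 0.38. On the TPM scale the median was 0.01, with 2 rising and 3 falling. Tyr, the tyrosinase that makes melanin, had 715, 512, 652 and 682 CPM before therapy and 1470, 1232, 1207 and 1249 CPM after ETS (log2 fold change 1.01, standard error 0.13, adjusted p = 0.000489), and Oca2, a melanosomal transporter, rose from 75.7 ± 10.2 to 154 ± 44.3 CPM (1.02). Gpr143, a receptor of the melanosome, rose by 0.53. Mlana rose by 0.44, a call lost on the TPM scale and with library totals alone. Pmel, of the melanosome's fibrils, had 6115, 4321, 5912 and 5726 CPM before therapy and 6186, 6181, 5796 and 6087 CPM after ETS (0.14, standard error 0.15, adjusted p = 0.476), and Tyrp1 and Dct did not pass either (0.16 and 0.32).

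The 11 largest rises, by the same rule as the falls, were those of Svop (5.82), Atp10b (4.99), Wfdc3 (4.51), Inka2 (4.47), Pnpla3 (4.13), Cox7a1 (4.10), Scrg1 (4.02), Faim2 (3.87), Hspb7 (3.87), 1700007K13Rik (3.81) and Col9a2 (3.80). Several started below 1 CPM in all 4 tumors before therapy. Svop, a relative of a synaptic vesicle protein, had 0.0646, 0.137, 0.062 and 0.158 CPM before therapy and 6.87, 6.68, 5.09 and 5.75 CPM after ETS (standard error 0.33, adjusted p = 3.54e-05). Inka2, an inhibitor of the kinase Pak4, had 0.986, 2.24, 1.10 and 2.31 CPM before therapy and 34.7, 33.0, 38.5 and 41.3 CPM after ETS (standard error 0.30). Hspb7, a small heat shock protein of muscle, had 16.9 and 12.6 CPM in tumors 1 and 2 after ETS, which held muscle RNA, and 4.28 and 4.20 CPM in tumors 3 and 4. Svop overlaps the annotated gene Gm16108, Atp10b overlaps Gm12146 and Gm51418, Pnpla3 overlaps Mir6392 and Gm20369, and 1700007K13Rik overlaps Mrps2.

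**Figure D3:**
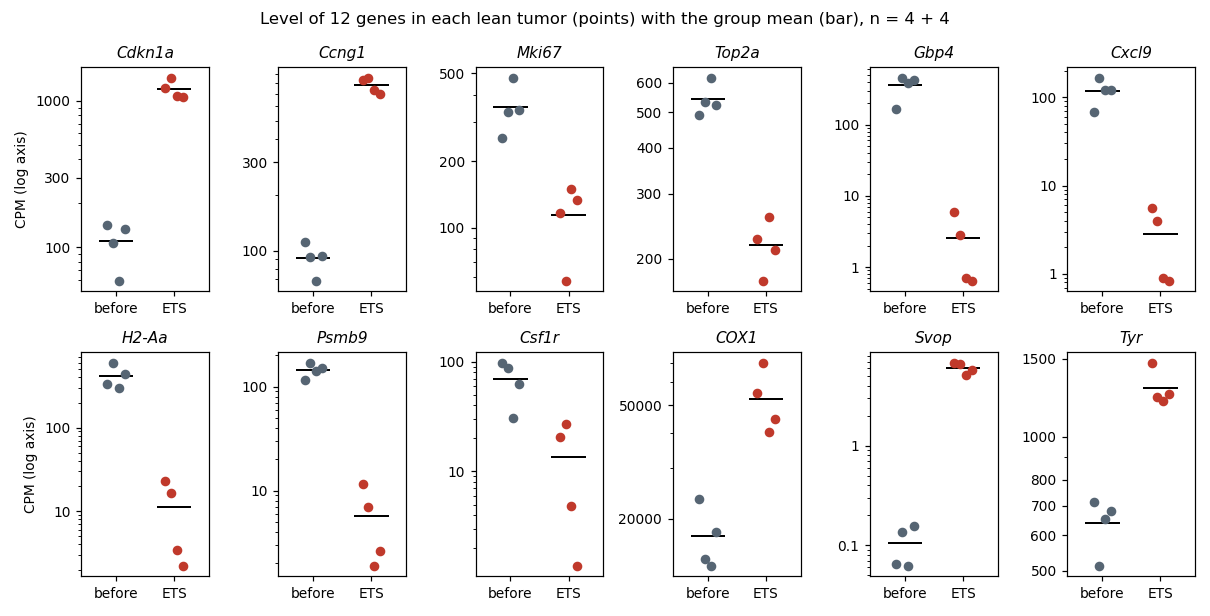
Level (CPM, log axis) of 12 genes in each of the 4 lean tumors before therapy and the 4 after ETS (points), with the group mean as a bar. The groups do not overlap in any of the 12 panels: Cdkn1a, Ccng1, COX1, Svop and Tyr are higher after ETS, and Mki67, Top2a, Gbp4, Cxcl9, H2-Aa, Psmb9 and Csf1r are lower.

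**Figure D4:**
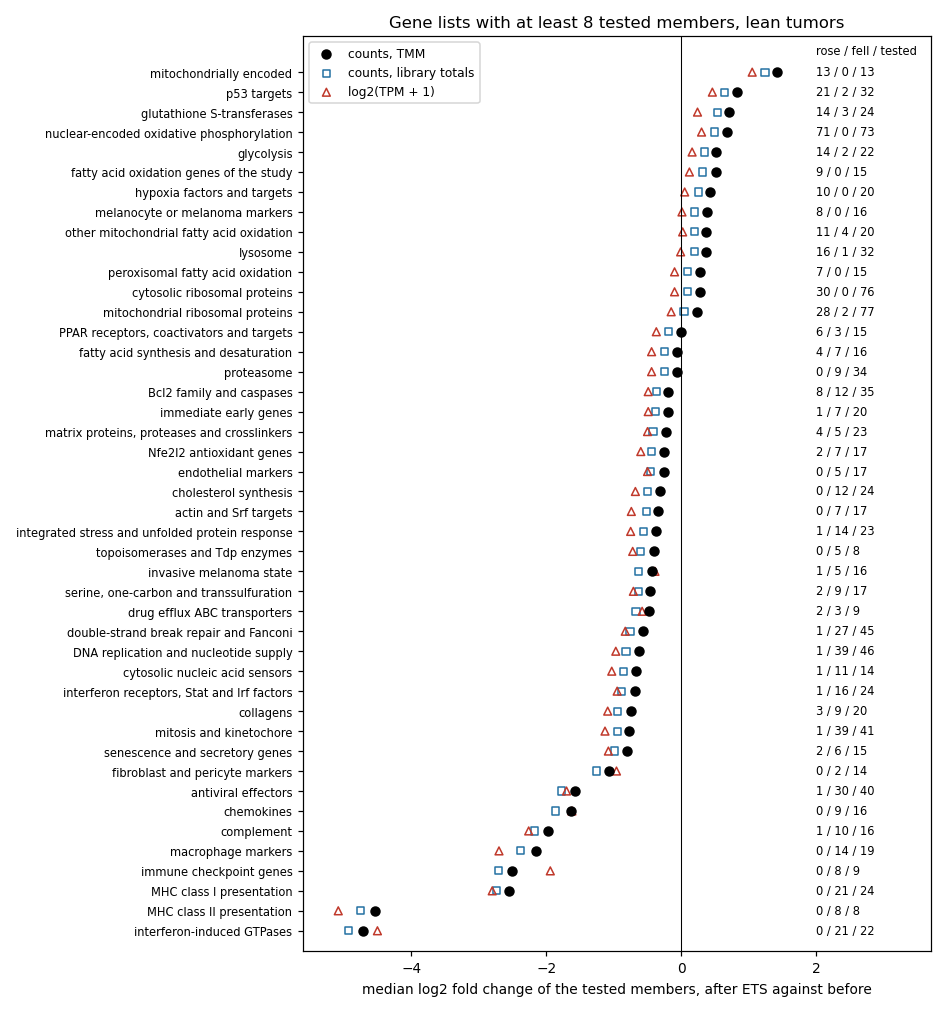
Median log2 fold change after ETS (horizontal axis) of the tested members of each gene list with at least 8 tested members, on 3 scales: counts with TMM scaling (black), counts with library totals (blue) and log2(TPM + 1) (red), with the numbers that rose, fell and were tested at the right. Interferon-induced GTPases and MHC class II genes have the lowest medians (-4.71 and -4.53) and the mitochondrially encoded genes the highest (1.42).

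The change after ETS in lean hosts was lower than that in obese hosts for every tested interferon-induced GTPase. In a fit of all 16 libraries, 6659 of the 16971 genes changed after ETS in obese hosts (39.2%), and the difference between the effects passed an adjusted p of 0.05 for 2842 genes (16.7%), of which 1738 had the lower change in lean hosts (10.2%) and 1104 the higher (6.51%). The count with the higher change was 650 without tumor 4 before therapy and 682 without tumor 2 after ETS, both of lean hosts. Of the obese tumors, number 2 after ETS also held muscle RNA, with 2313 counts of Myh4, and 2276 counts of Krt14, a keratin of the epidermis, and 2715 genes differed without it. Without all 5 libraries with a Myh4 count, which leaves 2 lean tumors a group, 1115 genes differed, of which 10.9% had the higher change in lean hosts. That share was 38.8% over all libraries with TMM scaling, 22.3% with library totals, and 8.69% for limma on log2(TPM + 1), where the test differs as well. The 22 GTPases had medians of -4.71 in lean and 1.90 in obese hosts, and the difference passed, with the lower change in lean hosts, for 37 of 40 antiviral effectors (-1.58 and 2.43), 21 of 24 MHC class I genes (-2.55 and 1.05) and 8 of 8 MHC class II genes (-4.53 and 1.53). The starting levels differed too. On the scale of the 16 libraries, Gbp4 was at 171, 460, 381 and 419 CPM in lean tumors before therapy and at 1.04, 1.74, 0.353 and 0 CPM in obese ones, and at 6.01, 2.94, 0.699 and 0.649 CPM in lean tumors after ETS and 2.23, 1.15, 4.49 and 2.67 CPM in obese ones. For Gbp4 the levels of the 2 hosts thus overlapped after ETS and lay far apart before therapy.

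Ifit1, which was not called in lean hosts, rose by 3.34 in obese hosts, from 1.99 ± 0.754 to 20 ± 5.83 CPM, and the difference was -3.40 (standard error 0.47). Macrophage markers (18 of 19 lower in lean hosts, medians -2.15 and 2.34) and endothelial markers (11 of 17, medians -0.26 and 1.11) differed in the same direction. Their part in the difference was not tested.

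Genes of division and damage were compared in the same way. Of the 41 mitosis genes 40 fell in obese hosts, with a median of -0.93 against -0.77 in lean hosts, and the difference passed for 4, or 9.76% beside 16.7% of all tested genes (Cdk1, Ncapg, Cdc20 and Pttg1, by 0.49, 0.60, 0.40 and 0.56). Of the 32 p53 targets 19 rose in obese hosts (median 0.76 against 0.82), and the difference passed for 9 with the higher change in lean hosts and for 2, Pmaip1 and the death receptor gene Fas, with the lower (-3.82 and -3.74), together 34.4% beside the same 16.7%. Cdkn1a was among the 9: it rose by 1.26 in obese hosts, where it was already at 521 ± 61.7 CPM before therapy and reached 1250 ± 72.8 CPM, against 111 ± 38.6 and 1215 ± 187 CPM in lean hosts (difference 2.18, standard error 0.30, adjusted p = 0.000191). For Bax the difference was 0.93 (standard error 0.18), with a change of 0.26 in obese hosts (adjusted p = 0.11). Of the 73 nuclear genes of oxidative phosphorylation, 49 (67.1%) had the higher change in lean hosts, beside 6.51% of all tested genes, with medians of 0.68 and 0.13. None of the 13 mitochondrially encoded genes passed the test of the difference, with medians of 1.42 and 0.91. The median difference was nonetheless similar, at 0.60 for the nuclear and 0.57 for the mitochondrially encoded genes. For the study's 15 fatty acid oxidation genes the medians were 0.51 and 0.43, and the difference passed for 2, Acsl1 (-0.57) and Cpt1a, with the lower change in lean hosts. Cpt1a had a change of 1.19 in obese hosts (difference -0.87, standard error 0.22, adjusted p = 0.0137).

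**Figure D5:**
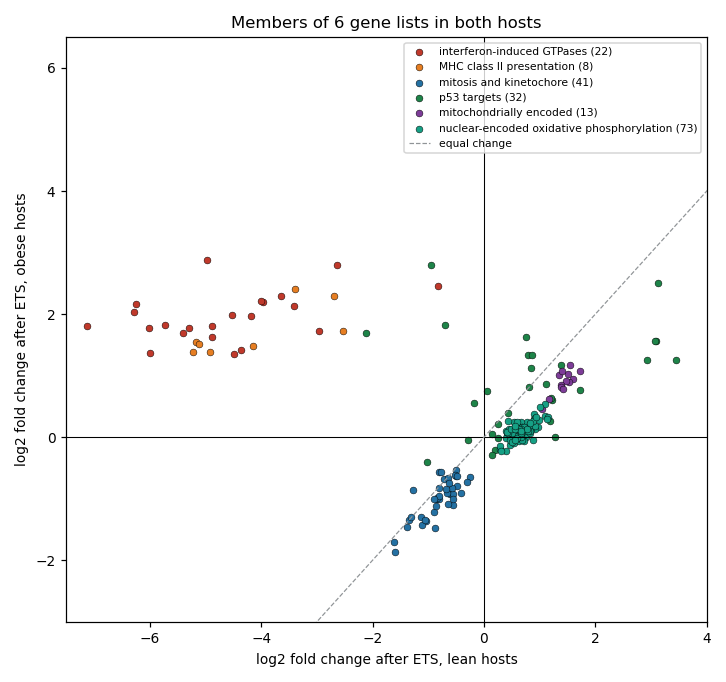
Log2 fold change after ETS in obese hosts (vertical axis) against lean hosts (horizontal axis) for the tested members of 6 gene lists (points), with a dashed line of equal change. Interferon-induced GTPases and MHC class II genes lie at the upper left, with medians below 0 in lean hosts and above 0 in obese hosts, and mitosis genes lie near the line. In obese hosts 13 of the 22 GTPases and 4 of the 8 MHC class II genes passed as rising, and none as falling.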

How the data were processed

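RNA of 16 grafted B16F10 tumors had been sequenced with a stranded mRNA kit, and the authors aligned trimmed reads with HISAT2 2.1.0 to mm10 and counted with StringTie 2.1.3b. The deposited table holds read counts per gene beside FPKM and TPM values of the authors. Counts were used for all main results, the deposited TPM values for 1 alternative, and the deposited FPKM values were not used. No total, blank or unassigned row was in the table.

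Groups came from the labels, and tumors were taken as separate samples of a group. Genes with a count of 0 in any of the 8 lean libraries were left out. The 16971 others were fitted with edgeR 4.0.16 (R 4.3.3, TMM scaling, quasi-likelihood test, two-sided, Benjamini-Hochberg adjustment over all genes). The difference between hosts was fitted over all 16 libraries on the same genes. Total counts of 57178259 to 61655287 per lean library set the counting precision. A standard error or adjusted p given without a tool is from this test. limma 3.58.1 and DESeq2 1.42.0 served for alternatives. The steps were tested on simulated data.

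The genes and the 52 gene lists were chosen with earlier results of these data known. Named are the 12 largest rises and falls at a mean of at least 1 CPM without overlap between groups, the 10 most abundant genes, up to 3 members of a list by largest change, and defining genes. Members of a count of 5 or fewer, genes beside a printed promoter, the further members of a family or pathway given for contrast, genes excluded for a zero and the glial and cartilage genes were chosen after their values were seen. Some genes that this rule picks are not reported here. Sequences are from RefSeq (GRCm38.p6), matched by gene ID.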

Additional observations from a re-analysis of the deposited data

Results flagged for a closer look

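The difference between the effects of ETS in lean and in obese hosts, lean minus obese on the log2 scale, passed an adjusted p of 0.05 in edgeR's quasi-likelihood test for the genes named below, each over 4 tumors a group and 4 groups. Values below 0 mean that the change was lower in lean hosts. The 16971 genes were kept by their counts in lean hosts alone, and 16209 genes had no zero in all 16 libraries. Some tested genes thus held a zero in an obese tumor, as Gbp4 did before therapy. Where a gene was at or near 0 in obese tumors, the size of the difference is uncertain. For genes of the interferon response the difference was Gbp4 -8.93, Gm4951 -8.41, Apol6 -8.30, Gbp8 -8.30, Gm12185 -7.99, Gbp5 -7.85, Gm12250 -7.79, Apol9a -7.69, Iigp1 -7.54, Gbp10 -7.35, Zbp1 -7.17, Tgtp1 -7.08, Apol9b -7.0, Gbp2 -6.68, Ifi204 -6.43, Irf8 -5.48, Socs1 -4.96, Aim2 -4.04, Ifit3 -3.95, Irf1 -3.80, Ifit1 -3.40, Isg15 -3.31 and Mx2 -3.27. In antigen presentation it was H2-Ab1 -6.72, Psmb8 -6.71, H2-Eb1 -6.61, H2-Aa -6.59, Psmb9 -6.16, Nlrc5 -5.57, H2-K1 -2.94 and B2m -2.88. For markers and products of immune cells, chemokines, checkpoint and complement genes it was Gzmb -11.28, Nkg7 -8.32, Ms4a4b -7.81, Cxcl9 -7.45, Il2rb -6.49, Fcgr1 -6.37, Itgam -6.07, Aif1 -5.90, Ccl4 -5.37, Cd86 -5.08, C3 -4.78, Csf1r -4.62, Ccr7 -4.58, Lyz2 -4.41, Itgax -4.34, Lag3 -4.26, Cd274 -3.75, Ccl5 -2.88, Cxcl10 -2.81 and Lgals9 -0.88. In vessels, stroma, matrix, cytoskeleton and the invasive state it was Tgfbi -6.33, Col3a1 -5.66, Fbn1 -5.37, Col14a1 -4.94, Axl -4.74, Col1a1 -4.55, Mmp19 -4.35, Postn -3.34, Tagln2 -2.74, Thbs1 -2.29, Zeb1 -2.19, Pdgfrb -2.03, Kdr -1.96, Erg -1.81, Spp1 -1.62, Fn1 -1.57, Ptprb -1.56, Emcn -1.54, Pecam1 -1.52, Flna -1.29, Timp3 -1.17, Actb -0.89 and Col16a1 -0.65. Among other named genes with a lower change in lean hosts it was Icam1 -4.83, Casp1 -4.65, Abcc3 -4.50, Casp12 -4.45, Gstp3 -4.08, Pmaip1 -3.82, Fas -3.74, Egr2 -3.66, Pparg -3.46, Plau -3.03, Ucp2 -2.89, Ctsh -2.64, Egr1 -2.39, Klf2 -2.32, Mgst1 -1.94, Lipe -1.70, Abcb1b -1.0, Pfkfb4 -0.98, Cpt1a -0.87, Pfkfb3 -0.79, Acsl5 -0.76, Abcc4 -0.72, Elovl5 -0.59 and Acsl1 -0.57. The change was higher in lean hosts for 30 named genes: the difference was Cdc20 0.40, Cdk1 0.49, Eef1a1 0.51, Pttg1 0.56, Ncapg 0.60, Gpx4 0.81, Uqcrh 0.83, Uqcr11 0.84, Tgfb2 0.89, Pfkm 0.89, Bax 0.93 and S100b 0.99 below 1 on the log2 scale, and Ctsf 1.21, Bbc3 1.28, Mbp 1.32, Gstm5 1.46, Ccng1 1.53, Chadl 2.03, Lgi4 2.09, Cdkn1a 2.18, Faim2 2.19, Thrsp 2.25, Inka2 2.31, Col9a2 2.56, Hapln1 2.64, Cox7a1 2.71, Atp10b 2.74, Scrg1 2.90, Pnpla3 3.64 and Col9a1 3.65 above it.

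Within the groups of 4 tumors, 1 tumor stood apart from the other 3 for some genes, by a gap to its neighbour that was an unusually large share of the group's range for 4 values (Dixon's limit, which chance passes in about 1 in 20 groups). It did so in 25 of 466 groups looked at, a share near the rate at which chance passes this limit, so the cases below are descriptions only. Tumor 1 before therapy was the highest for Ndufa13 0.91, Cd79a 0.905 and Ech1 0.905 of the range. Tumor 1 before therapy was the lowest for Uhrf1 0.918, Abcb1b 0.891, Gbp8 0.849, Gm4951 0.831 and Iigp1 0.937 of the range. Tumor 2 before therapy was the highest for Cth 0.838 of the range. Tumor 2 before therapy was the lowest for Gpnmb 0.918 and Chadl 0.833 of the range. Tumor 3 before therapy was the highest for Zeb2 0.935 of the range. Tumor 4 before therapy was the highest for Wfdc3 0.852 and Elovl5 0.845 of the range. Tumor 1 after ETS was the highest for Gbp8 0.865, Tyr 0.84, Apol9a 0.87, Apol9b 0.839 and Elovl7 0.845 of the range. Tumor 2 after ETS was the highest for Ier3 0.846 and Klf2 0.871 of the range. Tumor 2 after ETS was the lowest for Mx2 0.9 of the range. Tumor 3 after ETS was the highest for Abcc2 0.872, Mrpl18 0.843 and Cbs 0.85 of the range.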

How the results depend on the processing

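The count of 7373 changed genes lay between 6899 (no exclusion of zeros, 26782 genes tested) and 9062 (log2(TPM + 1) with limma) over the 11 other settings that kept every lean library, with 7354 for DESeq2's size factors, 7951 for DESeq2, 7437 for edgeR's exact test, 7149 with all 16 libraries in the fit and 8383 for limma-voom. Leaving out each tumor in turn gave 5845 to 7811 genes, 2581 to 3021 by the 2-fold limit and 2140 to 3285 for the difference between hosts. The 2 alternatives chosen after seeing the data were to leave out the libraries with a Myh4 count (4 lean and 1 obese), which left 2 lean tumors a group and 1260 genes changed (573 rose and 687 fell, with 1231 among the 7373) and 1115 that differed between hosts, and to leave out the mitochondrially encoded genes (7360). The 2-fold count was 3978 without the exclusion of zeros, 1846 on the TPM scale and 2084 without the libraries with a Myh4 count. The exact test was not run for the difference between hosts. Of 233 named genes 213 passed, and without the libraries with a Myh4 count 104 no longer passed. On the TPM scale Hif1a (-0.09), Ccne1 (-0.12), Il10rb (-0.03) and Col16a1 (-0.08) turned direction, as did the medians of the lysosomal (-0.01), peroxisomal (-0.10), mitochondrial ribosomal (-0.15) and cytosolic ribosomal genes (-0.10). The call was lost in at least 1 of the 8 fits that left out a tumor for 34 named genes. Beside those named with their values above, these were Col14a1, Acsl5, Gpnmb, Ctsh, Emcn, Erg, Zeb2, Mmp19, Me1, Gstp3, Col18a1, Eno1, Fth1, Ccne1, Tdp2, C3, Fn1, Elovl7, Acacb, Top3a, Il10rb, Pfkfb3, Itgax, Zbtb46 and Mrps22. The genes from Col14a1 to Eno1 in this order lost the call in most of these fits.

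Replicate numbers are shared between the groups, but the labels do not say what they mark, and tumors of the same number deviated together with correlations of 0.0831, 0.264, 0.427 and 0.023, so the numbers were not taken as pairs. Not every tumor before therapy matched best the tumor of its own number after ETS. With the replicate block 7549 genes changed, 2800 by the 2-fold limit, and 3104 differed between hosts. The depth of 57178259 to 61655287 counts left 28806 of 45777 genes with a zero in at least 1 lean library, among them 14 of 20 T and NK cell markers and all 6 erythroid markers.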

Other observations

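Several genes known from myelinating glia or from cartilage rose after ETS. They were chosen after their values were seen and belong to no list above, and other genes known from these tissues were not counted. Mbp, myelin basic protein, had 110, 87.4, 71.6 and 75.9 CPM before therapy and 390, 410, 364 and 251 CPM after ETS (log2 fold change 2.04, adjusted p = 0.000136 by edgeR, as for the values below). S100b, a calcium-binding protein of glia and pigment cells, rose from 46.6, 31.8, 40.9 and 43.4 CPM to 186, 143, 164 and 179 CPM (2.05), and Lgi4, a secreted factor of Schwann cells, rose by 3.0. No tumor after ETS lay within the range before therapy for these 3 genes. Mbp overlaps Rpl21-ps8 and Gm52337, and Lgi4 overlaps Fxyd3.

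Among cartilage genes, Chadl, a small leucine-rich matrix protein, had 1.91, 1.28, 1.83 and 1.80 CPM before therapy and 20.6, 23.6, 17.1 and 18.0 CPM after ETS (3.54, adjusted p = 2.49e-05). Hapln1, which links hyaluronan to aggrecan, rose from 12.7, 16.4, 8.68 and 15 CPM to 68.2, 62, 61.4 and 44.5 CPM (2.16). The collagen genes Col9a1 and Col10a1 rose by 3.32 and 3.36, beside Col9a2 (3.80) and Col11a1 (2.0) above. Genes left out for a zero were not tested: Col2a1, the collagen of cartilage, had 20, 35, 0 and 50 counts before therapy and 271, 403, 225 and 424 after ETS, and Matn4, a matrilin, had none before therapy and 60, 62, 61 and 82 counts after ETS. All 4 tumors after ETS showed these genes, those with muscle RNA and those without, and the part of muscle RNA in their levels was not tested. Chadl overlaps L3mbtl2, Col10a1 overlaps Nt5dc1 and Hapln1 overlaps Gm8546.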
